A study of Homo sapiens with 96 samples.

Results

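Matrix metalloproteinases (MMPs) are zinc-dependent proteases that cut collagens, gelatin, laminins and other matrix proteins, and the tissue inhibitors of metalloproteinases (TIMPs) bind and block their active sites. The 10 genes described here are the collagenases MMP1 and MMP13, the stromelysins MMP3 and MMP10, the gelatinases MMP2 and MMP9, the membrane-bound protease MMP14 and the inhibitors TIMP1, TIMP2 and TIMP3. They were chosen by name and are 10 of the 19775 genes measured, each read through its brightest probe set on the arrays of transduced HaCaT cells. On GRCh38.p14, MMP10 (chr11:102770502-102780628), MMP1 (chr11:102789919-102798160), MMP3 (chr11:102835801-102843609) and MMP13 (chr11:102942995-102955732) lie side by side, and the others lie apart (MMP2 at chr16:55478830-55506691, MMP9 at chr20:46008908-46016561, MMP14 at chr14:22836585-22847758, TIMP1 at chrX:47582436-47586789, TIMP2 at chr17:78852977-78925387 and TIMP3 at chr22:32801705-32863041). In skin, keratinocytes at a wound edge secrete MMP1, MMP9 and MMP10 while they migrate. MMPs are made as inactive proforms, and MMP14 together with TIMP2 activates pro-MMP2 at the cell surface. Transcription of MMP1, MMP9, MMP10, MMP13 and TIMP1 is known to respond to AP-1 and ETS factors, which act downstream of the epidermal growth factor receptor (EGFR) through RAS and the MAPK cascade.

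Expression was measured on 96 Affymetrix U133 Plus 2.0 arrays, and values are the deposited log2 expression values. HaCaT is an immortalized, non-tumorigenic human keratinocyte line. It was transduced with lentivirus and selected with puromycin as pools, so each line carries a CMV-driven construct: PIK3CA-HR, an activated PI3K catalytic subunit (HaCaT-PIK3CA, 22 arrays), HRASVal12D, an activated RAS (HaCaT-HRAS, 23 arrays), wild-type EGFR (HaCaT-EGFR, 22 arrays), or the empty vector (HaCaT-Mock, 22 arrays). Each line received afatinib at 10 nM, gefitinib at 100 nM, cetuximab at 100 nM or PBS (3 arrays per group, but 2 for gefitinib in HaCaT-PIK3CA and 2 for PBS in HaCaT-EGFR), EGFR siRNA (siEGFR, 3 arrays) or scramble siRNA (3 arrays), and scramble siRNA together with each inhibitor (1 array each) or with PBS (2 arrays, but 1 for HaCaT-Mock). The remaining 7 arrays came from the squamous carcinoma lines SCC1 (2 arrays), SCC25 (2 arrays) and FaDu (1 untreated and 1 with PBS) and from parental HaCaT cells (1 array). Afatinib and gefitinib inhibit the EGFR kinase and cetuximab is an antibody that blocks ligand binding. Their doses differ, so their values are given side by side and are not compared.

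The labels give 4 array batches, J with 53 arrays, M with 26, E with 16 and P with 1, and batch was a term of every model. Differences are log2 differences from limma with their standard error (SE), and a gene is said to have risen or fallen where its Benjamini-Hochberg adjusted p over all 19775 genes was under 0.05. Whether replicates came from separate cultures is not stated in the labels, and the p-values then measure an array-to-array spread that may be technical. The files hold no detection calls. MMP3 outside SCC1, MMP2 in SCC1 and MMP1 and MMP10 on some arrays lay at or below the mean level of genes of unrelated tissues. So did MMP13 in SCC1, in HaCaT-HRAS throughout and in the other construct lines under PBS without siRNA. MMP13 lay there as well in HaCaT-PIK3CA and HaCaT-Mock under scramble siRNA or siEGFR alone, and on most inhibitor arrays of untransfected HaCaT-PIK3CA. Differences that involve such levels are given without a fold. In bulk RNA, fewer cells that express a gene and less transcript per cell cannot be told apart. Keratinocyte markers averaged 10.00 to 11.77 over all construct arrays, while lists of fibroblast, leukocyte and endothelial markers averaged 4.51 to 5.33 and genes of unrelated tissues 5.07 to 5.58. EGFR fell with siEGFR by 1.92 (SE 0.0479, adjusted p = 8.1e-37), a check of the siRNA labels.

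Some arrays stood apart from others of their label. The array labelled HaCaT-Mock scramble PBS had the highest correlation with HaCaT-Mock cetuximab replicate 1 (r = 0.9970 across genes), and its KRT4 level, 9.16, lay among those of the HaCaT-Mock inhibitor arrays (8.75 to 10.22) and not near the other HaCaT-Mock PBS arrays (5.73, 5.92 and 5.94). Its level of DUSP6, an ERK-induced phosphatase, was 8.13, between the HaCaT-Mock inhibitor arrays (5.90 to 7.84) and the other PBS arrays (9.49 to 10.18). The array labelled HaCaT-PIK3CA afatinib replicate 1 was closest to a HaCaT-PIK3CA scramble PBS array (r = 0.9963), with KRT4 at 6.10 against 9.13 and 9.21, and DUSP6 at 9.57 against 8.16 and 7.73, in the other two afatinib arrays of that line. KRT4, a keratin of stratified epithelia, and DUSP6 were chosen for this check after their values were seen. HaCaT-HRAS gefitinib replicate 1 reached an r of only 0.9855 with its nearest array. HaCaT-Mock PBS replicate 3 was closest to HaCaT-PIK3CA scramble PBS replicate 2, also of batch E (r = 0.9963). It held the lowest MMP1 and MMP9 values of its group and was not set aside. HaCaT-Mock scramble replicate 1 was closest to HaCaT-EGFR scramble replicate 1 (r = 0.9962), and its next nearest arrays were also of other lines. That array held the highest MMP1 and MMP10 values of its group (7.48 and 7.37) and was not set aside either. An alternative set aside 3 arrays together, HaCaT-HRAS gefitinib replicates 1 and 2 and HaCaT-PIK3CA afatinib replicate 1. Replicate 2 was listed from earlier results of these data, and here it did not stand apart (r = 0.9960 with an afatinib array of its own line). Values without these 3 arrays are given beside some of the results they touch. Of the 78 single-member results past the test that are counted at the end, only MMP10 in HaCaT-HRAS lost its call without them.

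The promoters of 4 of the 10 genes (MMP10, MMP14, TIMP1 and TIMP3) were found in RefSeq (GRCh38.p14), as 250 bases before to 50 bases after the start. The 2 that held a searched motif are shown because their genes moved in opposite directions under EGFR inhibitors in HaCaT-Mock and HaCaT-EGFR. Both strands were searched for the AP-1 site TGAGTCA, its looser form TGANTCA (which includes it), the related AP-1 site TGAGTAA, the ETS core AGGAAG and the TATA box TATAAA, and matches are in capitals. MMP10 lies on the minus strand (chr11:102780579-102780878) and held TGAATCA at -67 to -61 and TATAAA at -31 to -26. TIMP1 lies on the plus strand (chrX:47582186-47582485) and held TGAGTAA at -101 to -95 and AGGAAG at -87 to -82.
MMP10: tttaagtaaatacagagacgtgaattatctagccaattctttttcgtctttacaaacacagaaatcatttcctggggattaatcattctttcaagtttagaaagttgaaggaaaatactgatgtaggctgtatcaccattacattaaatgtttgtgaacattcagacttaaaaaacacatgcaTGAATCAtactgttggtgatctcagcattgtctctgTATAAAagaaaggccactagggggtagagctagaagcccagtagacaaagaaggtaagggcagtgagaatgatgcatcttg
TIMP1: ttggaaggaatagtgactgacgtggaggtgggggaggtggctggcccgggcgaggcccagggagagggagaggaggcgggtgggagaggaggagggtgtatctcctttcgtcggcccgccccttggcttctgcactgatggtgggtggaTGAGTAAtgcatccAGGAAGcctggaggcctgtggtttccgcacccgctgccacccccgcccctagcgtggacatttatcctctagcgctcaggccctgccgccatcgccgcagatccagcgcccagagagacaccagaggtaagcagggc
Of 35116 promoters of this length, 4.95% held TGAGTCA, 7.71% TGANTCA, 2.57% TGAGTAA, 33.6% AGGAAG and 11.5% TATAAA. A match is a description of the letters and was not tested as a binding site.

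HaCaT-PIK3CA was compared with HaCaT-Mock first, without an inhibitor. None of the 10 genes passed the test under PBS (n = 3 against 3), where 0.162% of all genes did, and 2 of the 10 had an unadjusted p under 0.05. MMP10 was at 5.57, 5.93 and 5.41 in HaCaT-PIK3CA and at 5.29, 5.61 and 5.42 in HaCaT-Mock, a difference of 0.64 (SE 0.278, adjusted p = 0.44). MMP2 was at 8.01, 8.06 and 8.53 in HaCaT-PIK3CA and at 8.37, 8.29 and 8.28 in HaCaT-Mock, a difference of -0.27 (SE 0.103, adjusted p = 0.35). The groups overlapped for both genes. MMP2 passed when the 3 arrays set aside, all of other groups, were left out of the model (-0.27, adjusted p = 0.03). For MMP9 the 95% interval of the difference ran from -0.30 to 0.46, for TIMP1 from -0.10 to 0.37 and for TIMP2 from -0.22 to 0.16. Differences of 0.5 or more lay outside these intervals, whereas for MMP1 the interval ran from -0.50 to 1.52. For MMP13 it ran from -0.49 to 0.37. Its levels lay below the mean of genes of unrelated tissues in both lines, so this interval cannot bound a difference in transcript. Under scramble siRNA none of the 10 passed either (0.0303% of genes, n = 3 against 3), with 1 at an unadjusted p under 0.05, and under siEGFR none passed and none had an unadjusted p under 0.05.

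Under the 3 inhibitors together (n = 8 HaCaT-PIK3CA arrays against 9 HaCaT-Mock arrays), 1 of the 10 genes was higher in HaCaT-PIK3CA, where 9.28% of all genes were, and 5 were lower, where 16.1% of all genes were. MMP13 was lower (-2.14, SE 0.133, adjusted p = 6.2e-18) and so was MMP10 (-1.87, SE 0.172, adjusted p = 3.3e-12). MMP1 differed by -1.36 (SE 0.312, adjusted p = 0.00082), MMP2 by -0.28 (SE 0.0637, adjusted p = 0.00062) and TIMP2 by -0.21 (SE 0.0583, adjusted p = 0.0067), and TIMP1 was 0.53 higher (SE 0.0718, adjusted p = 1.4e-07). MMP9 differed by 0.16 (SE 0.117) and MMP14 by 0.02 (SE 0.0647), neither past the test. Within batches J and M the differences were -2.31 and -1.70 for MMP13, -1.78 and -1.49 for MMP10, -1.21 and -0.59 for MMP1, and 0.58 and 0.54 for TIMP1. Without the arrays set aside MMP13 differed by -2.06 and MMP10 by -1.90, while TIMP2 differed by -0.13 (adjusted p = 0.016). The calls of MMP1, MMP2 and TIMP2 were lost with batch J arrays alone and that of TIMP1 without a batch term. Keratinocyte markers were also lower (4 of 6, DSC3 by -0.81 and DSG3 by -0.76, both desmosomal cadherins), and their part in these differences was not tested.

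**Figure D1:**
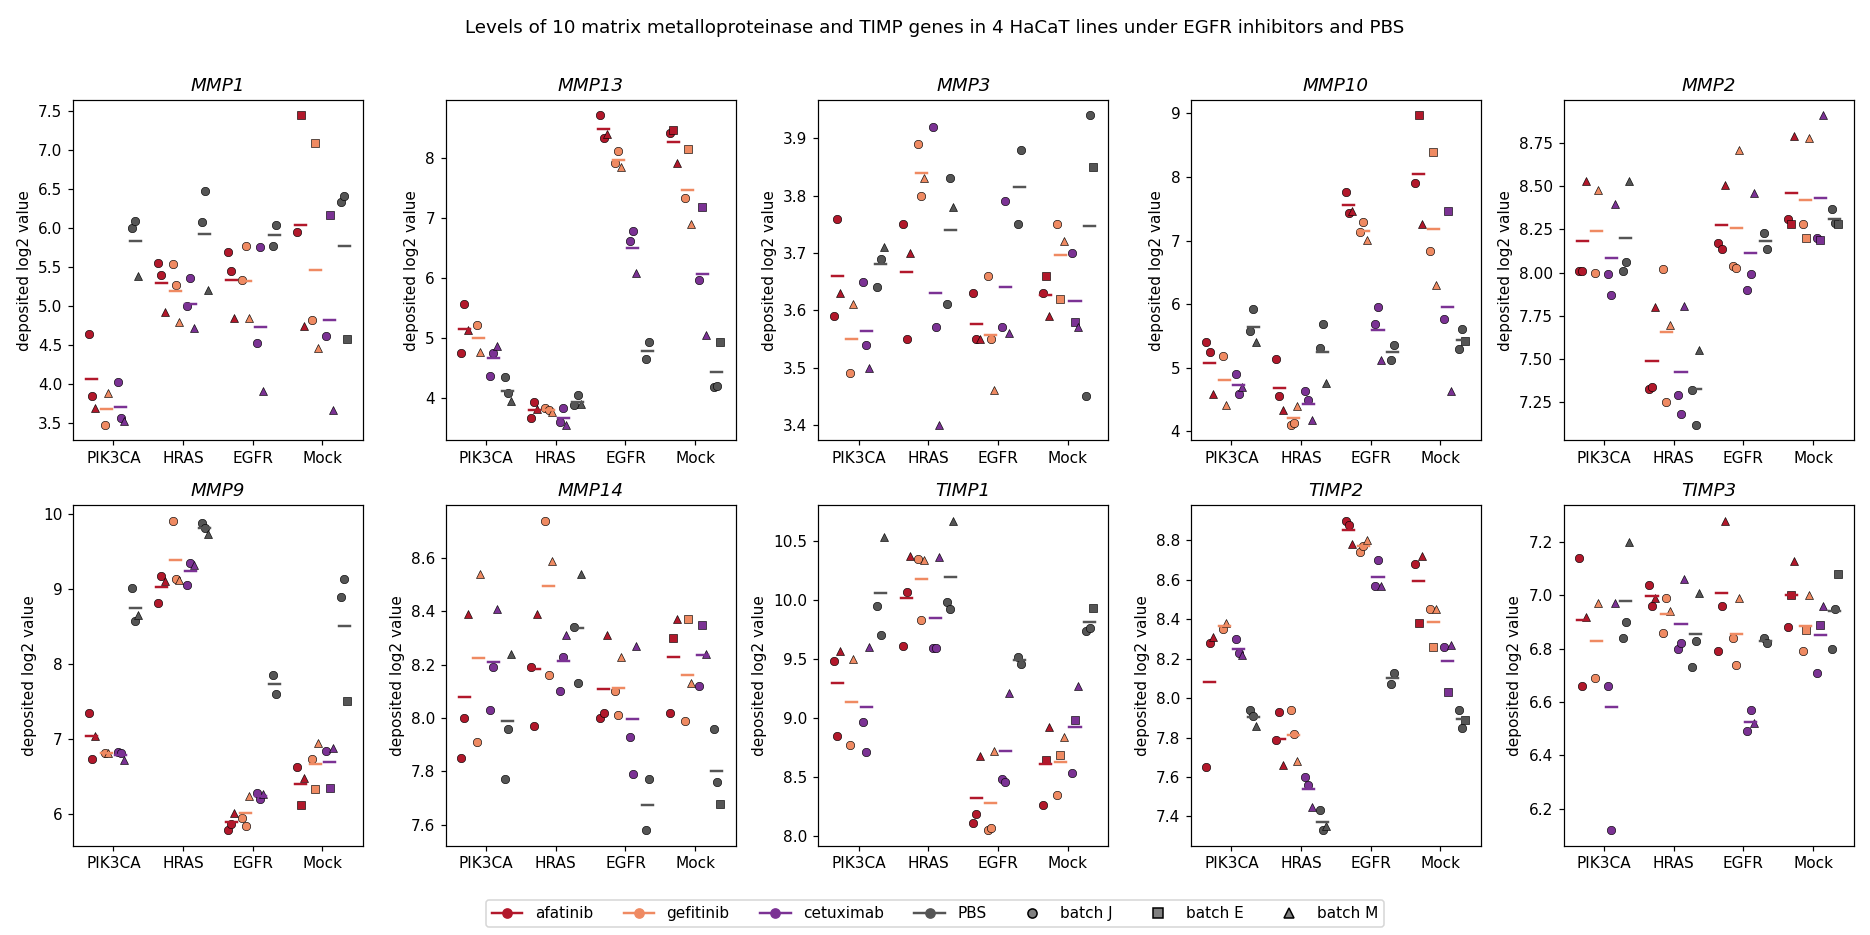
Deposited log2 value (vertical axes) of the 10 genes on each array of the 4 HaCaT lines, with afatinib, gefitinib and cetuximab left of PBS. Points are arrays, marker shape gives the batch and short lines are group means. MMP13 lay at 5.05 to 8.47 under inhibitors in HaCaT-Mock and at 4.37 to 5.56 in HaCaT-PIK3CA.

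MMP13, collagenase 3, cuts fibrillar collagens and is made by keratinocytes mainly in migrating or malignant epithelium. In HaCaT-Mock it was at 8.42, 8.47 and 7.91 with afatinib, at 7.33, 8.15 and 6.90 with gefitinib and at 5.96, 7.18 and 5.05 with cetuximab (batches J, E and M), against 4.18, 4.19 and 4.93 with PBS (batches J, J and E). Every inhibitor array was above every PBS array. The 3 inhibitors together raised MMP13 by 2.90 in HaCaT-Mock (SE 0.173, adjusted p = 2.4e-19), by 3.06 within batch J and by 3.01 within batch E. In HaCaT-EGFR it reached 8.71, 8.34 and 8.40 with afatinib, 7.92, 8.12 and 7.85 with gefitinib and 6.62, 6.78 and 6.08 with cetuximab, against 4.64 and 4.93 with PBS, a rise of 2.93 (SE 0.202, adjusted p = 8.9e-17). In HaCaT-PIK3CA the levels were 4.74, 5.56 and 5.13 with afatinib, 5.21 and 4.77 with gefitinib and 4.37, 4.75 and 4.86 with cetuximab, against 4.34, 4.08 and 3.94 with PBS. That rise of 0.82 (SE 0.175, adjusted p = 0.00027) gave a response that differed from HaCaT-Mock by -2.08 (SE 0.246, adjusted p = 2.6e-07). It was 0.90 without the arrays set aside, and every inhibitor array of HaCaT-PIK3CA lay above its PBS arrays, cetuximab replicate 1 by the least. Most of these HaCaT-PIK3CA levels, with inhibitors and with PBS, lay at or below the mean level of genes of unrelated tissues, which limits what their difference shows. In HaCaT-HRAS MMP13 stayed between 3.55 and 3.93 under inhibitors, against 3.88, 4.04 and 3.89 with PBS, a difference of -0.19 (SE 0.172) that did not pass the test.

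MMP10, stromelysin 2, degrades basement membrane components and can activate other pro-MMPs. With inhibitors it was at 7.91, 8.97 and 7.26 (afatinib), 6.84, 8.40 and 6.30 (gefitinib) and 5.77, 7.47 and 4.64 (cetuximab) in HaCaT-Mock, against 5.29, 5.61 and 5.42 with PBS. The batch E arrays were the highest for each inhibitor, and the lowest cetuximab array lay below the PBS arrays. The rise in HaCaT-Mock was 1.77 (SE 0.224, adjusted p = 4.9e-09), or 1.39 within batch J and 2.86 within batch E. In HaCaT-EGFR it was 1.67 (SE 0.262, adjusted p = 9.3e-07). For afatinib, gefitinib and cetuximab the differences were 2.75, 1.88 and 0.66 in HaCaT-Mock and 2.46, 2.05 and 0.50 in HaCaT-EGFR, of which those for cetuximab did not pass the test. In untransfected HaCaT-PIK3CA the gene moved the other way from PBS levels of 5.57, 5.93 and 5.41. It was at 5.41, 5.24 and 4.59 with afatinib, 5.18 and 4.42 with gefitinib and 4.90, 4.58 and 4.70 with cetuximab. It fell by 0.75 (SE 0.226, adjusted p = 0.012), with 1 afatinib array level with the lowest PBS array, and the response minus that of HaCaT-Mock was -2.51 (SE 0.318, adjusted p = 1.1e-06). MMP10 also fell by 0.82 in HaCaT-HRAS (SE 0.222, adjusted p = 0.017), where the response minus that of HaCaT-Mock was -2.58 (SE 0.315, adjusted p = 2.6e-08). The call in HaCaT-PIK3CA was lost without PBS replicate 2 or 3 of that line, with batch J arrays alone, with no batch term and with a replicate block. The call in HaCaT-HRAS was lost without any 1 of its PBS arrays or without the arrays set aside (-0.65, adjusted p = 0.092). It was also lost with array weights, with no batch term and with a replicate block, and was kept without either gefitinib replicate 1 or 2 alone.

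The counts over the 10 genes stand beside those over all genes. In HaCaT-Mock 4 of the 10 rose (MMP13, MMP10, MMP14 and TIMP2; 14.5% of all genes rose) and 2 fell (MMP9 and TIMP1; 14.2% of all genes fell). In HaCaT-EGFR the same 4 rose and the same 2 fell (13.6% and 12.8% of all genes). In HaCaT-PIK3CA 2 rose (MMP13 and TIMP2; 10.2% of all genes) and 4 fell (MMP1, MMP10, MMP9 and TIMP1; 10.1%). In HaCaT-HRAS TIMP2 alone rose (3.81% of all genes) and MMP10 and MMP9 fell (2.2%). The response differed from that of HaCaT-Mock for 2 of the 10 in HaCaT-PIK3CA, where it did for 0.142% of all genes, and for none of them in HaCaT-EGFR, where it did for 0.0708% and where no member had an unadjusted p under 0.05. The HaCaT-EGFR intervals still allow differences of -0.50 to 0.56 for MMP13 and of -0.78 to 0.59 for MMP10. In HaCaT-HRAS it was higher for 2 genes (MMP9 and TIMP1; 4.83% of all genes) and lower for 3 (MMP13, MMP10 and MMP14; 4.7%).

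**Figure D2:**
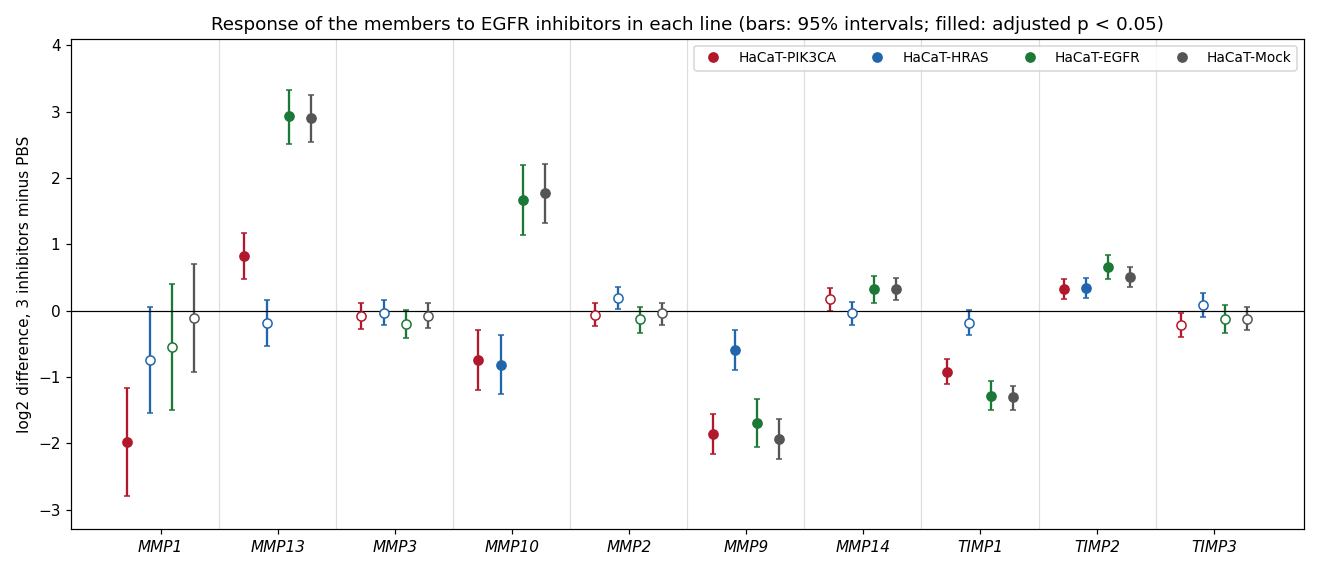
Log2 difference of the 3 inhibitors minus PBS (vertical axis) for each gene in the 4 lines, with 95% intervals from limma. Filled points passed the test at an adjusted p under 0.05. MMP13 and MMP10 stand at 2.90 and 1.77 in HaCaT-Mock and at 0.82 and -0.75 in HaCaT-PIK3CA, while MMP9 lies at -1.94 and -1.86.

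MMP9, gelatinase B, cuts denatured collagens and type IV collagen. It fell in all 4 lines. In HaCaT-PIK3CA it was at 7.35, 6.74 and 7.04 with afatinib, 6.82 and 6.82 with gefitinib and 6.83, 6.82 and 6.73 with cetuximab, against 9.01, 8.57 and 8.66 with PBS, and it fell by 1.86 (SE 0.154, adjusted p = 8.1e-14). In HaCaT-Mock it was at 6.63, 6.12 and 6.48 with afatinib, 6.74, 6.34 and 6.95 with gefitinib and 6.84, 6.35 and 6.89 with cetuximab, against 8.89, 9.14 and 7.51 with PBS. The lowest PBS value was the batch E array, and the difference of -1.94 (SE 0.152, adjusted p = 2.9e-15) was -2.28 within batch J and -1.24 within batch E. The response of HaCaT-PIK3CA minus that of HaCaT-Mock was 0.07 (95% interval -0.36 to 0.51). HaCaT-EGFR arrays lay at 5.79 to 6.28 with inhibitors, against 7.86 and 7.60 with PBS, and it fell by 1.69 (SE 0.178, adjusted p = 5.8e-11). In HaCaT-HRAS MMP9 remained at 8.82 to 9.91 with inhibitors, against 9.88, 9.81 and 9.74 with PBS. It fell by 0.59 there (SE 0.151, adjusted p = 0.01), with a response minus that of HaCaT-Mock of 1.35 (SE 0.214, adjusted p = 8.5e-06). The call of the fall in HaCaT-HRAS was lost without any 1 of the PBS arrays of that line. It was also lost with batch J arrays alone, with only the groups compared, with no batch term and with a replicate block.

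MMP1, interstitial collagenase, passed the test in HaCaT-PIK3CA and not in the other 3 lines. In HaCaT-PIK3CA it was at 4.65, 3.85 and 3.69 with afatinib, 3.48 and 3.89 with gefitinib and 4.03, 3.57 and 3.53 with cetuximab, against 6.01, 6.10 and 5.39 with PBS. The difference of -1.98 (SE 0.41, adjusted p = 0.00018) was -2.14 within batch J and -1.69 within batch M, and the groups did not overlap. In HaCaT-Mock the same gene was at 5.95, 7.45 and 4.75 with afatinib, 4.82, 7.10 and 4.47 with gefitinib and 4.62, 6.17 and 3.67 with cetuximab (batches J, E and M), against 6.34, 6.41 and 4.58 with PBS (batches J, J and E). The difference was -0.11 overall (SE 0.405), but -1.25 within batch J and 2.33 within batch E, so the direction in HaCaT-Mock was not settled. The response of HaCaT-PIK3CA minus that of HaCaT-Mock was -1.87 (SE 0.576, adjusted p = 0.24), so a difference between the lines did not pass the test. The differences in HaCaT-EGFR (-0.55) and HaCaT-HRAS (-0.75) did not pass the test.

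MMP14, the membrane-type protease that activates pro-MMP2, rose in 2 lines. It rose by 0.33 in HaCaT-Mock (SE 0.0841, adjusted p = 0.0018) and by 0.32 in HaCaT-EGFR (SE 0.0984, adjusted p = 0.01), and the differences in HaCaT-PIK3CA (0.17) and HaCaT-HRAS (-0.04) did not pass. These 2 calls were lost without PBS replicate 3 in HaCaT-Mock and without PBS replicate 1 in HaCaT-EGFR. Of the other 3 MMP14 probe sets, 1 rose in HaCaT-Mock (0.39), none in HaCaT-EGFR and 1 in HaCaT-PIK3CA (0.33). MMP2, gelatinase A, whose levels were 7.87 to 8.91 under inhibitors in HaCaT-PIK3CA, HaCaT-EGFR and HaCaT-Mock, passed in no line (-0.06 in HaCaT-PIK3CA, 0.19 in HaCaT-HRAS, -0.13 in HaCaT-EGFR and -0.04 in HaCaT-Mock). MMP3, stromelysin 1, had a mean of 3.715 over the construct arrays, with 8.21% of genes lower, and its largest difference in the 4 lines was -0.20 in HaCaT-EGFR (SE 0.109), not past the test.

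Of the TIMPs, TIMP1, a secreted inhibitor of most MMPs that also acts on cell growth, was at 9.48, 8.85 and 9.57 with afatinib, 8.77 and 9.50 with gefitinib and 8.97, 8.71 and 9.60 with cetuximab in HaCaT-PIK3CA, against 9.95, 9.70 and 10.53 with PBS. The batch M array was the highest of each group. TIMP1 fell by 0.92 (SE 0.0945, adjusted p = 5e-11), -0.87 within batch J and -0.98 within batch M. In HaCaT-Mock TIMP1 was at 8.26, 8.64 and 8.92 with afatinib, 8.35, 8.69 and 8.84 with gefitinib and 8.53, 8.98 and 9.27 with cetuximab, against 9.74, 9.76 and 9.93 with PBS. It fell by 1.31 there (SE 0.0933, adjusted p = 1.1e-16), and the response of HaCaT-PIK3CA minus that of HaCaT-Mock was 0.39 (SE 0.133, adjusted p = 0.32). In HaCaT-EGFR it fell by 1.28 (SE 0.109, adjusted p = 1.2e-13). In HaCaT-HRAS the difference was -0.18 (SE 0.0925, adjusted p = 0.29), and -0.28 (adjusted p = 0.0046) without the arrays set aside. The response of HaCaT-HRAS minus that of HaCaT-Mock was 1.13 (SE 0.131, adjusted p = 6.8e-09).

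TIMP2, the inhibitor that also bridges MMP14 and pro-MMP2, rose in all 4 lines through the probe set used. It was at 7.65, 8.28 and 8.31 with afatinib, 8.35 and 8.38 with gefitinib and 8.30, 8.23 and 8.22 with cetuximab in HaCaT-PIK3CA, against 7.94, 7.91 and 7.86 with PBS. The 7.65 belongs to afatinib replicate 1, the single inhibitor array of that line below its PBS arrays. The rise was 0.33 (SE 0.0768, adjusted p = 0.00084), and 0.40 without the arrays set aside. It was 0.51 in HaCaT-Mock (SE 0.0759, adjusted p = 2.5e-07), 0.66 in HaCaT-EGFR (SE 0.0887, adjusted p = 3.3e-08) and 0.34 in HaCaT-HRAS (SE 0.0752, adjusted p = 0.0023). The calls in HaCaT-PIK3CA and HaCaT-HRAS were lost with batch J arrays alone and with a replicate block, and that in HaCaT-PIK3CA also with only the groups compared. A second TIMP2 probe set followed the one used across the HaCaT arrays with r = 0.94. It rose by 0.47 in HaCaT-Mock, 0.54 in HaCaT-EGFR and 0.32 in HaCaT-PIK3CA, but its 0.16 in HaCaT-HRAS did not pass. The remaining TIMP2 probe set was dimmer (mean 6.35, r = 0.54) and rose in HaCaT-EGFR alone (0.31, adjusted p = 0.023). Its values in HaCaT-Mock (0.19), HaCaT-PIK3CA (0.08) and HaCaT-HRAS (0.23) did not pass, and it passed in no other comparison of the construct lines run through all probe sets. TIMP3, which binds to the matrix, passed in no line through the probe set used (-0.22 in HaCaT-PIK3CA, adjusted p = 0.07). In HaCaT-PIK3CA it did pass without the 3 arrays set aside (-0.28, adjusted p = 0.0051), with array weights (-0.23, adjusted p = 0.0045), with the filter on dim probe sets (-0.22, adjusted p = 0.038) and with quantile normalization (-0.26, adjusted p = 0.035), and against HaCaT-Mock under inhibitors without the arrays set aside (-0.18, adjusted p = 0.025). In addition, 2 of its other 3 probe sets fell with inhibitors in HaCaT-PIK3CA (-0.54 and -0.43, adjusted p = 0.0048 and 0.0046) and were lower there than in HaCaT-Mock under inhibitors (-0.75 and -0.78, adjusted p = 6.2e-07 and 6.4e-10), where the probe set used differed by -0.12. All 4 TIMP3 probe sets were lower in both comparisons and differed in size.

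Cells given scramble siRNA with the inhibitors were other arrays, mostly of batch E. Over the 4 lines (n = 12 against 7), 3 of the 10 genes rose (10.3% of all genes) and 2 fell (9.05% of all genes). MMP13 rose by 1.13 (SE 0.135, adjusted p = 4e-09), TIMP2 by 0.36 (SE 0.059, adjusted p = 3.9e-06) and MMP14 by 0.22 (SE 0.0655, adjusted p = 0.011). MMP9 fell by 0.70 (SE 0.118, adjusted p = 7.7e-06) and TIMP1 by 0.67 (SE 0.0726, adjusted p = 3.6e-10). In this set MMP13 reached 6.67, 6.63 and 6.01 in HaCaT-PIK3CA with afatinib, gefitinib and cetuximab, against 4.24 and 4.43 with PBS, and MMP10 was at 6.62, 6.28 and 5.71, against 4.86 and 5.71. With afatinib and gefitinib MMP10 lay above both PBS arrays of this set, and with cetuximab level with the higher one. It fell in untransfected HaCaT-PIK3CA. For both genes these transfected HaCaT-PIK3CA arrays lay above the untransfected inhibitor arrays of that line. The former were all of batch E and the latter of batches J and M, so transfection and batch cannot be told apart. The difference between the sets was not tested. The single HaCaT-Mock PBS array with scramble siRNA is the one described above for its KRT4 level of 9.16, with MMP13 at 6.24 and TIMP1 at 8.76. Without HaCaT-Mock, MMP13 still rose by 0.93 (adjusted p = 2e-06), and TIMP3 passed as well (-0.22, adjusted p = 0.028), an alternative chosen after seeing the data.

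**Figure D3:**
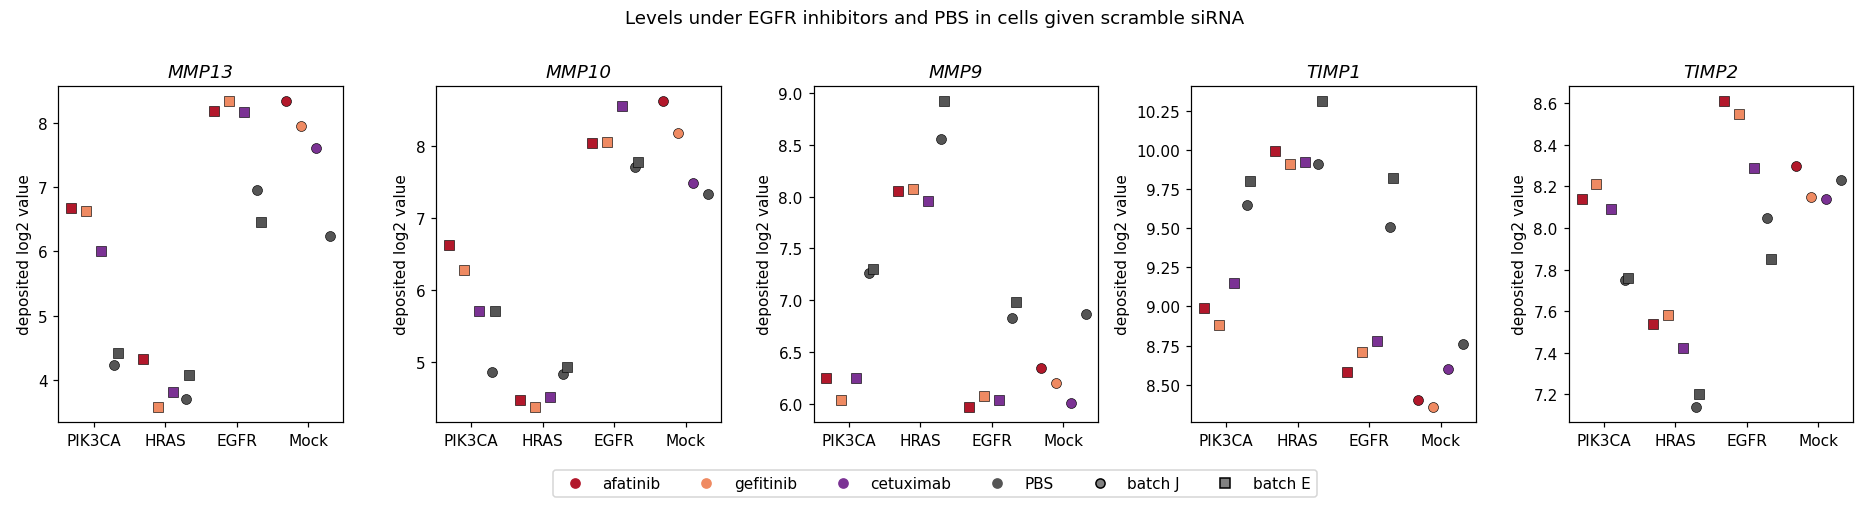
Deposited log2 value (vertical axes) of 5 genes in cells given scramble siRNA with afatinib, gefitinib or cetuximab, left of PBS, in the 4 lines. Each point is 1 array and its shape gives the batch. In HaCaT-PIK3CA MMP13 lies at 6.01 to 6.67 with inhibitors and at 4.24 and 4.43 with PBS.

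EGFR siRNA asks the same question without an inhibitor. Over the 4 lines (n = 12 against 12), 3 of the 10 genes rose (14.2% of all genes rose) and 1 fell (14.1% of all genes fell). TIMP2 rose by 0.34 (SE 0.046, adjusted p = 2.5e-08), and each of the 12 siEGFR arrays was above the scramble arrays of its own line. The other TIMP2 probe sets gave 0.25, past the test, and 0.07, not past it. In HaCaT-PIK3CA TIMP2 was at 8.15, 8.09 and 7.95 with siEGFR, against 7.65, 7.82 and 7.63 with scramble siRNA, and in HaCaT-Mock at 7.95, 7.83 and 8.10, against 7.70, 7.79 and 7.62. MMP1 rose by 0.68 (SE 0.246, adjusted p = 0.031), MMP13 by 0.27 (SE 0.105, adjusted p = 0.048), and MMP9 fell by 0.24 (SE 0.0922, adjusted p = 0.039). These 3 calls depended on single arrays. With each array left out in turn, MMP1 kept its call in 14 of 24 refits, MMP13 in 7 and MMP9 in 12, with values of 0.50 to 0.93, 0.22 to 0.29 and -0.27 to -0.23. For MMP1 all siEGFR arrays of HaCaT-PIK3CA, HaCaT-HRAS and HaCaT-EGFR were above their scramble arrays, while in HaCaT-Mock the siEGFR arrays lay at 5.15, 5.85 and 4.49, against 7.48, 4.02 and 4.18 with scramble siRNA. MMP13 rose in HaCaT-EGFR, where it was at 7.25, 7.49 and 7.10 with siEGFR, against 6.51, 6.44 and 6.47 with scramble siRNA (0.81, SE 0.21, adjusted p = 0.0064). In HaCaT-Mock, the line in which the inhibitors raised it by 2.90, it was at 4.34, 4.37 and 4.69 with siEGFR, against 4.70, 4.41 and 4.30 with scramble siRNA (95% interval of the difference -0.43 to 0.41). These HaCaT-Mock levels all lay below the mean of genes of unrelated tissues, so the interval cannot bound a difference in transcript. TIMP1 differed by -0.09 over the 4 lines (SE 0.0567) and MMP10 by 0.26 (SE 0.136), neither past the test.

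Scramble siRNA against PBS over the 4 lines (n = 12 against 11) raised 2 of the 10 genes (13.6% of all genes rose) and lowered 2 (13.5% of all genes fell). MMP10 rose by 1.27 (SE 0.141, adjusted p = 2.7e-10) and MMP13 by 0.48 (SE 0.109, adjusted p = 0.00044), while MMP9 fell by 0.63 (SE 0.0959, adjusted p = 5e-07) and TIMP2 by 0.27 (SE 0.0479, adjusted p = 1.2e-05). The lines differed in value. MMP10 was 1.56 higher in HaCaT-Mock (adjusted p = 0.00024) and 0.63 and 0.28 higher in HaCaT-PIK3CA and HaCaT-HRAS, not past the test, and MMP13 differed by 0.10, -0.23 and 0.29 in HaCaT-PIK3CA, HaCaT-HRAS and HaCaT-Mock, none past the test. MMP10 in HaCaT-EGFR was at 7.72, 7.60 and 7.84 with scramble siRNA, against 5.12 and 5.36 with PBS, a rise of 2.63 (SE 0.305, adjusted p = 1.2e-07). MMP13 rose there by 1.75 (SE 0.236, adjusted p = 3.3e-06) and MMP1 by 2.15 (SE 0.553, adjusted p = 0.012). In HaCaT-PIK3CA MMP1 fell, at 4.02, 3.75 and 4.29 with scramble siRNA, against 6.01, 6.10 and 5.39 with PBS (-1.81, SE 0.492, adjusted p = 0.013).

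**Figure D4:**
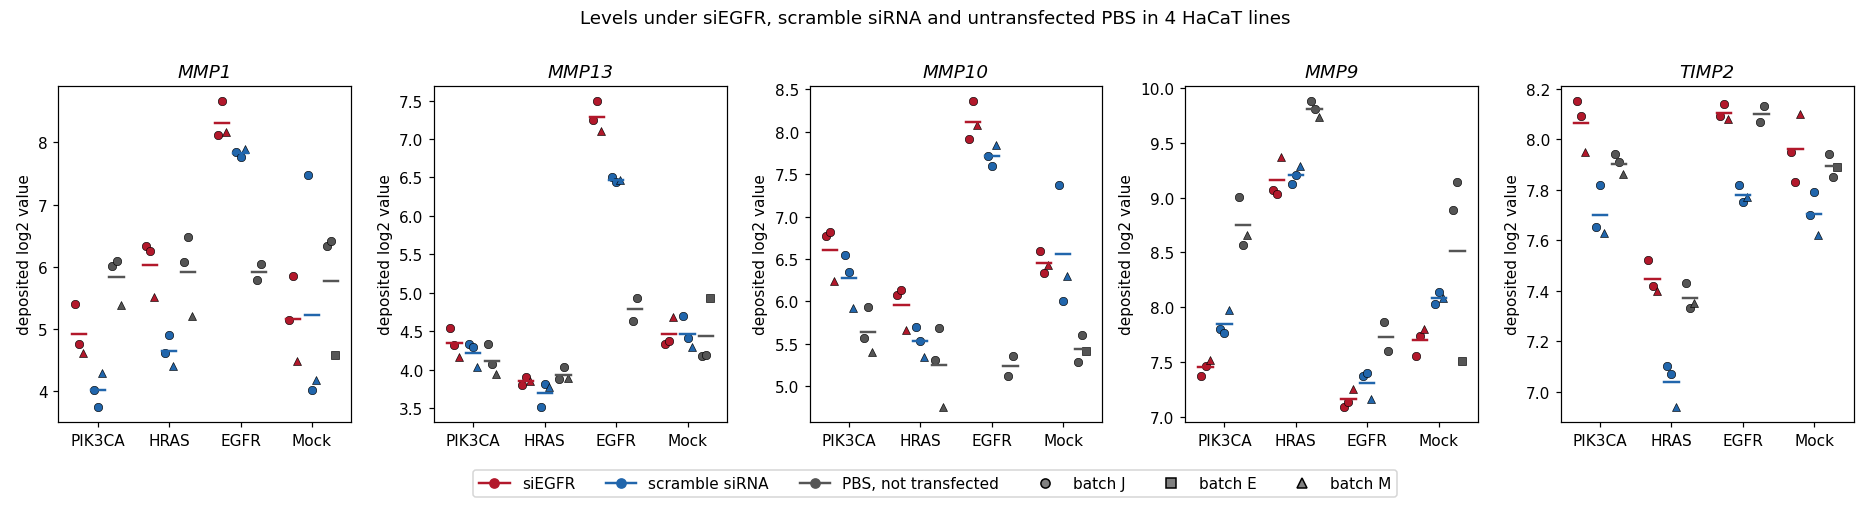
Deposited log2 value (vertical axes) of 5 genes with siEGFR, scramble siRNA and untransfected PBS in the 4 lines. Points are arrays, marker shape gives the batch and short lines are group means. TIMP2 lies higher with siEGFR than with scramble siRNA in every line, and MMP10 in HaCaT-EGFR lies at 7.60 to 7.84 with scramble siRNA and at 5.12 and 5.36 with PBS.

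The other constructs differed from HaCaT-Mock without an inhibitor. In HaCaT-HRAS under PBS (n = 3 against 3) 2 of the 10 genes were higher (6.74% of all genes) and 2 lower (9.34%). MMP9 was at 9.88, 9.81 and 9.74, against 8.89, 9.14 and 7.51 in HaCaT-Mock, higher by 1.14 (SE 0.189, adjusted p = 4.2e-06), and MMP14 was at 8.34, 8.13 and 8.54, against 7.96, 7.76 and 7.68, higher by 0.52 (SE 0.104, adjusted p = 0.00013). MMP2 was at 7.32, 7.12 and 7.55, against 8.37, 8.29 and 8.28, a difference of -1.14 (SE 0.103, adjusted p = 4.2e-13), and TIMP2 at 7.43, 7.33 and 7.35, against 7.94, 7.85 and 7.89 (-0.56, SE 0.0942, adjusted p = 6.2e-06). The MMP14 call was lost with batch J arrays alone, with only the groups compared and with the replicate block (0.38 at the lowest). The MMP2 difference was seen in its bright probe set alone, and the other 2, with means of 3.36 and 4.98, gave 0.21 and -0.01. The other TIMP2 probe sets gave -0.49, past the test, and -0.01, not past it. Under scramble siRNA MMP9 was again higher (1.12, 6.96% of all genes were higher) and MMP2 and TIMP2 lower (-1.08 and -0.67, 7.93% of all genes were lower), along with MMP13 (-0.77) and MMP10 (-1.03), whose calls were lost without HaCaT-HRAS scramble replicate 1 and HaCaT-Mock scramble replicate 1. In both lines MMP13 lay below the mean level of genes of unrelated tissues under scramble siRNA. MMP14 differed by 0.17 there and did not pass. HaCaT-Mock scramble replicate 1, described above among the arrays that stood apart, held MMP10 at 7.37, above its replicates.

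HaCaT-EGFR under PBS (n = 2 against 3) had 1 member past the test, where 0.698% of all genes were. MMP9 was at 7.86 and 7.60, against 8.89, 9.14 and 7.51 in HaCaT-Mock, and the call was lost without either HaCaT-EGFR array or either batch J HaCaT-Mock array, with differences of -1.29 to -0.64. Under scramble siRNA (n = 3 against 3) HaCaT-EGFR had more of 3 proteases (1.81% of all genes were higher) and less MMP9 (-0.77, adjusted p = 0.0088, 0.571% of all genes were lower). MMP13 was at 6.51, 6.44 and 6.47, against 4.70, 4.41 and 4.30 in HaCaT-Mock, a difference of 2.00 (SE 0.21, adjusted p = 1.1e-09). MMP1 was at 7.85, 7.76 and 7.89, against 7.48, 4.02 and 4.18 (2.61, SE 0.492, adjusted p = 0.00047), and 1.89 to 3.64 with 1 array left out. Its call was lost with batch J arrays alone, with only the groups compared and with the replicate block. MMP10 was at 7.72, 7.60 and 7.84, against 7.37 in HaCaT-Mock replicate 1 and 6.30 or less in the others (1.17, SE 0.272, adjusted p = 0.0067). Its call and that of MMP9 were lost without HaCaT-Mock scramble replicate 2 or HaCaT-EGFR scramble replicate 3. Keratinocyte markers were also higher in HaCaT-EGFR under scramble siRNA (4 of 6), and their part in these differences was not tested.

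The carcinoma lines each had their own combination. SCC1 against HaCaT-Mock under PBS (n = 2 against 3) had 4 of the 10 genes higher (19.9% of all genes) and 4 lower (17.5%). MMP3, at 4.29 or less on every array outside SCC1, was at 6.70 and 6.29, against 3.45, 3.94 and 3.85 in HaCaT-Mock (2.74, SE 0.131, adjusted p = 8.3e-26). MMP2 was at 4.70 and 4.94, against 8.37, 8.29 and 8.28 (-3.73, SE 0.117, adjusted p = 1.5e-34). MMP1 was 2.41 higher (SE 0.555, adjusted p = 0.00028), and its call was lost with batch J arrays alone (1.51). TIMP2 was 1.09 higher, MMP9 differed by -1.93, TIMP1 by -1.24 and TIMP3 by -0.50. MMP14 was 0.35 higher, and its call was lost without SCC1 replicate 2 or HaCaT-Mock PBS replicate 3, as was that of TIMP3 without SCC1 replicate 1 or without a batch term. Through the probe set the study's rule picks, TIMP3 differed by -1.68. All 6 keratinocyte markers measured were lower in SCC1, with list means of 8.17 and 8.20 on its arrays, and their part in these differences was not tested.

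SCC25 against HaCaT-Mock under PBS (n = 2 against 3) had 4 of the 10 genes higher (19.5% of all genes) and 5 lower (22.7%). MMP13 was at 6.80 and 6.11, against 4.18, 4.19 and 4.93 in HaCaT-Mock (2.31, SE 0.242, adjusted p = 3.7e-12). TIMP2 was at 9.14 and 9.13, against 7.94, 7.85 and 7.89 (1.21, SE 0.103), TIMP3 1.13 higher (2.10 through the study's probe set) and MMP14 1.18 higher. MMP9 was lower (-2.25), as were TIMP1 (-1.85, SE 0.128, adjusted p = 7.6e-19) and MMP2 (-1.14). MMP10 (-1.13) lost its call without SCC25 replicate 1, and MMP3 (-0.38) without SCC25 replicate 1 or HaCaT-Mock PBS replicate 2 or 3. FaDu, with 1 array each untreated and under PBS in different batches, had MMP2 at 5.29 and 5.14 and MMP9 at 6.12 and 5.14, and parental HaCaT, with 1 array, had MMP1 at 8.17, MMP13 at 6.57 and MMP9 at 6.26, and neither was tested.

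**Figure D5:**
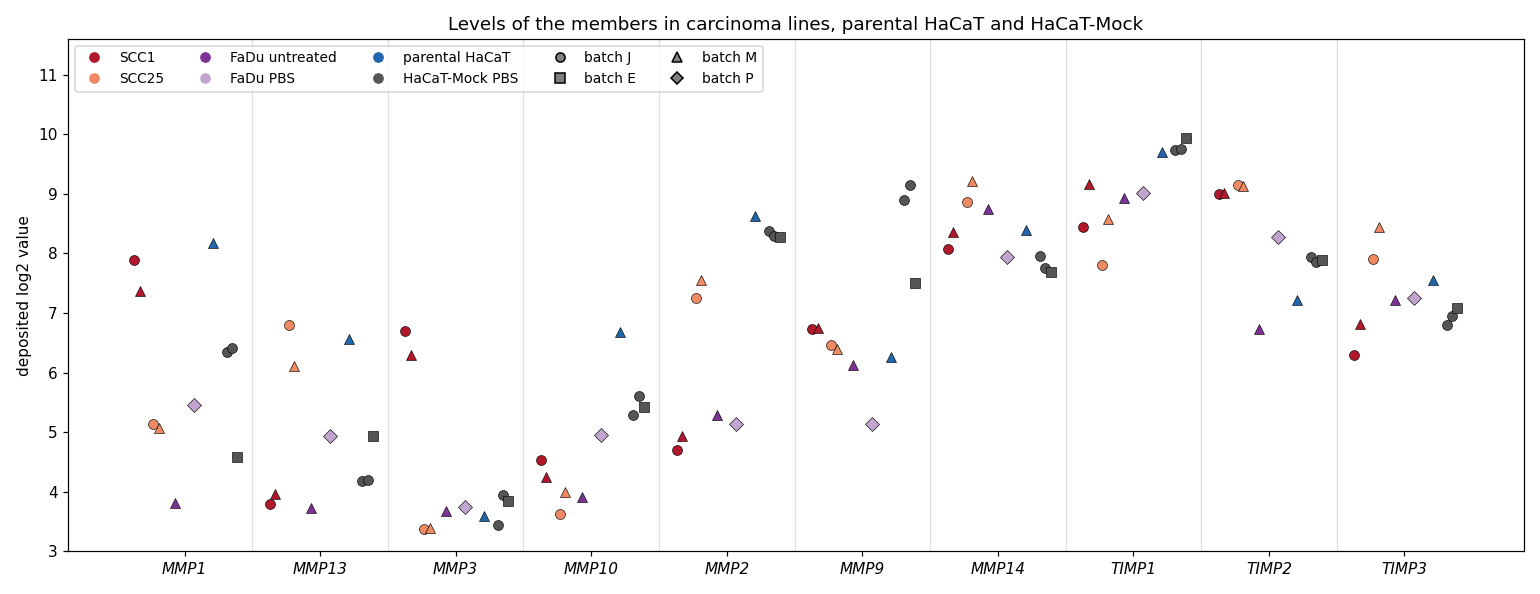
Deposited log2 value (vertical axis) of the 10 genes in SCC1, SCC25, FaDu and parental HaCaT arrays and, rightmost in each column, the HaCaT-Mock PBS arrays. Each point is 1 array, and its shape gives the batch. MMP3 is at 6.70 and 6.29 in SCC1 only, and MMP2 is at 4.70 to 5.29 in SCC1 and FaDu against 8.28 to 8.37 in HaCaT-Mock.

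Related genes were described by lists, which were chosen with earlier results known. Of 16 other MMPs and TIMP4 measured, 3 rose with inhibitors in HaCaT-Mock, namely MMP28 (epilysin of keratinocytes, 0.95), MMP7 (matrilysin, 0.97) and MMP12 (macrophage elastase, 1.23), against 14.5% of all genes. The same 3 rose in HaCaT-EGFR, MMP7 and MMP28 rose in HaCaT-PIK3CA (0.72 and 0.68) with MMP16 lower (-0.33), and none passed in HaCaT-HRAS. MMP12 was the single other MMP whose response differed in HaCaT-PIK3CA (-1.26, SE 0.285, adjusted p = 0.041). Of 12 AP-1 and ETS factors, 3 rose and 7 fell in HaCaT-PIK3CA (10.2% and 10.1% of all genes), 4 and 4 in HaCaT-EGFR (13.6% and 12.8%) and 2 and 6 in HaCaT-Mock (14.5% and 14.2%), and 1 rose in HaCaT-HRAS (3.81%). The ERK-induced factors ETV5 and FOSL1 fell in HaCaT-PIK3CA (-2.35 and -2.22) and in HaCaT-Mock (-3.04 and -2.54), as did ETV4 (-0.89 and -1.20). None of the 12 had a response in HaCaT-PIK3CA that differed from HaCaT-Mock past the test. Among 4 measured protease inhibitors outside the TIMP family, SERPINE2 and TFPI2 fell in HaCaT-PIK3CA (-1.03 and -0.97) and in HaCaT-Mock (-1.51 and -1.21). None of the 4 rose. Of 9 activators and surface partners of pro-MMPs, 3 rose and 2 fell in each of these lines. CD44, a docking receptor for MMP9, was among those that fell (-0.80 and -0.73). Of 12 ADAM and ADAMTS metalloproteinases, 3 rose and 4 fell in HaCaT-PIK3CA, and 3 rose and 3 fell in HaCaT-Mock. The sheddase ADAM19 was among those that fell (-1.18 and -1.43). The shares over all genes are those given above for these lines. Keratinocyte markers moved with the inhibitors as well, with 3 of 6 higher and 1 lower in HaCaT-PIK3CA and 5 higher and 1 lower in HaCaT-Mock. KRT5, a basal keratin, rose by 1.03 and 1.21. Their part in the responses of the proteases was not tested.

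Across the 40 HaCaT group means, fitted with the batch term, some of the members formed opposed sets. This is a description with no test since groups share lines, treatments and batches, and 13 groups held 1 array. MMP10 and MMP13 correlated at r = 0.83 and MMP9 and TIMP1 at 0.90. MMP13 ran against MMP9 (-0.85) and TIMP1 (-0.85), and TIMP2 ran against TIMP1 (-0.89) and MMP9 (-0.87). MMP14 and TIMP3 followed neither set, with r of -0.45 to 0.12 and of -0.36 to 0.32 with the other members. The genes most like MMP13 were the histone H2BC5 (0.97), the actin-severing gelsolin GSN (0.96) and the histone H2AC6 (0.96), and those most like MMP10 were ATP1B3 (0.92), H2BC12 (0.90) and H2BC12L (0.90). MMP9 was followed most closely by UPP1 (0.97), HYI (0.96) and SH2D5 (0.95), TIMP1 by STAMBPL1 (0.98), TMEM158 (0.97) and ETV5 (0.97), and TIMP2 by UTRN (0.97), GALNT2 (0.96) and KRCC1 (0.96). MMP1 was most like another member, MMP10 (0.72), and the metallothioneins MT1X and MT1G (0.70 each). MMP2 was most like SYNGR1, NDN and COG8 (0.94 each), MMP14 like EXT1 and NUDCD3 (0.80 each) and HEMK1 (0.79). MMP3 was most like HOXB4 (0.72), PPP1R16A and L3MBTL3 (0.69 each), and TIMP3 like ZNF526 and HMGXB3 (0.64 each) and XKR8 (0.63).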

How the data were processed

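RNA of 96 samples was hybridised to Affymetrix U133 Plus 2.0 arrays. The authors deposited log2 expression values per probe set (54675 probe sets, 2.651 to 14.5, array medians 5.082 to 5.175). Their methods name frozen RMA, pSVA batch correction and an outlier filter. Which of them had been applied to the deposited log2 values was not given in the sources used here. The affy package appears in the submitters' processing notes. Groups and batches came from the labels. Gene names came from the platform's annotation table (41097 with 1 symbol, 1801 with several and 11777 not listed), and the brightest over 89 HaCaT construct arrays was used per gene, with no filter on low values.

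All 89 arrays entered 1 limma model (limma 3.58.1, R 4.3.3) with a term per group and per batch (47 residual degrees of freedom), two-sided, with Benjamini-Hochberg adjustment over 19775 genes. SCC1 and SCC25 were tested in a model of 95 arrays without the batch P array. The script was tested on simulated data. The number of arrays limits the precision. Promoters came from RefSeq (GRCh38.p14). Figures were drawn with matplotlib 3.10.9.

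The text names all 10 members, for each list up to 3 genes with the lowest adjusted p past the test, and for each member the 3 most correlated genes at or above the median level of 6.102 over 40 group means. Members and lists were chosen with earlier results of these data known. Alternatives were another probe set rule, a filter on dim probe sets, quantile normalization, array weights, batch left out, as a random block or J alone, fewer groups, a replicate block, and leaving out arrays. One alternative, the scramble siRNA comparison without HaCaT-Mock, was chosen after seeing the data.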

Additional observations from a re-analysis of the deposited data

Results flagged for a closer look

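The response to the 3 inhibitors differed between constructs for 5 of the 10 genes, by a test of the difference of responses in limma. In HaCaT-PIK3CA minus HaCaT-Mock it was -2.08 for MMP13 (adjusted p = 2.6e-07) and -2.51 for MMP10 (adjusted p = 1.1e-06), where 0.142% of all genes differed, and both kept their call under every alternative run, leaving out each array included. In HaCaT-HRAS minus HaCaT-Mock it was -3.09 for MMP13 (adjusted p = 1.4e-13), -2.58 for MMP10 (adjusted p = 2.6e-08), 1.35 for MMP9 (adjusted p = 8.5e-06), 1.13 for TIMP1 (adjusted p = 6.8e-09) and -0.36 for MMP14 (adjusted p = 0.039), where 4.83% of all genes were higher and 4.7% lower. Without a batch term the TIMP1 value was 0.91 and lost its call. The MMP14 value kept its call in 3 of 10 other settings (-0.46 to -0.18) and in 13 of 24 refits that left out 1 array (-0.48 to -0.21). It was lost with array weights, batch J arrays alone, only the groups compared, the study's probe set rule, quantile normalization, no batch term and the replicate block. The comparisons share the HaCaT-Mock arrays, of which PBS replicate 3 and 1 array per inhibitor are of batch E, a batch that holds no untransfected HaCaT-PIK3CA or HaCaT-HRAS array. All of them, alternatives included, compared untransfected cells. In HaCaT-PIK3CA with scramble siRNA, MMP10 was at 6.62, 6.28 and 5.71 with afatinib, gefitinib and cetuximab, against a PBS mean of 5.28. MMP13 was there at 6.67, 6.63 and 6.01, against 4.33. In the same order, HaCaT-EGFR had MMP10 at 8.05, 8.06 and 8.56, against 7.75, and MMP13 at 8.18, 8.33 and 8.16, against 6.70. HaCaT-Mock had MMP10 at 8.63, 8.19 and 7.49, against 7.34, and MMP13 at 8.33, 7.95 and 7.61, against 6.24. Its single PBS array is the one described above for its KRT4 level. HaCaT-HRAS had MMP10 at 4.46, 4.37 and 4.51, against 4.87, and MMP13 at 4.33, 3.59 and 3.82, against 3.89. No difference of responses was tested with scramble siRNA.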

How the results depend on the processing

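Of 78 results past the test for single members, 744 values under other settings kept the call in 662 cases, lost it in 77 and reversed in 5, and of 894 values with 1 array left out (96 refits) 817 kept it, 77 lost it and 0 reversed. The cause of the changes below was not tested. The number of members changed moved as follows. With array weights it was 1 for HaCaT-PIK3CA against HaCaT-Mock under PBS (0 in the main model) and 2 for HaCaT-EGFR under PBS (1). Without HaCaT-HRAS gefitinib replicates 1 and 2 and HaCaT-PIK3CA afatinib replicate 1 it was 1 for HaCaT-PIK3CA under PBS. Without a batch term it was 0 for HaCaT-EGFR under PBS, 2 for HaCaT-EGFR under scramble siRNA (4), 3 for HaCaT-HRAS under scramble siRNA (5), 3 for HaCaT-PIK3CA under inhibitors (6), 1 for inhibitors in HaCaT-HRAS (3), 3 for the HaCaT-HRAS difference of responses (5) and 1 for siEGFR (4). With batch J alone it was 1 for HaCaT-EGFR under scramble siRNA, 3 for HaCaT-PIK3CA under inhibitors, 1 for inhibitors in HaCaT-HRAS and 2 for siEGFR. With only the groups compared it was 0 for HaCaT-EGFR under PBS and 2 under scramble siRNA. The same replicate number did not pair arrays (median r 0.00 over 650 pairs, 7.69% over 0.1, against 9.71% of 700 pairs of different numbers), and with a replicate block the count was 1 for HaCaT-EGFR under scramble siRNA, 0 for inhibitors in HaCaT-HRAS and 2 for siEGFR. With 1 array left out the counts ranged from 0 to 1 for HaCaT-EGFR under PBS, 2 to 4 under scramble siRNA, 1 to 4 for inhibitors in HaCaT-HRAS and 1 to 5 for siEGFR. Leaving out a group of 1 array gave no value. With the study's probe set rule MMP2 is read by a dim probe set and turned to 0.21 and 0.04 for HaCaT-HRAS under PBS and scramble siRNA, 0.09 for HaCaT-PIK3CA under inhibitors, 0.06 for SCC1 and 0.25 for SCC25, and, outside the 78 results, MMP14 to -0.02 for afatinib alone in HaCaT-EGFR.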
